A study of Oryza sativa with 6 samples.

Results

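Heat shock factors (HSFs) and heat shock proteins (HSPs) were examined in leaves of rice (Oryza sativa) overexpressing OsCGA1, a GATA-type transcription factor (OX), and in leaves of wild type rice (WT), both at 4 weeks of age. Members were the genes whose symbol or synonym in the RefSeq gene table begins with HSF, HSP or HSC followed by a number, with or without a leading Os and letters or hyphens before the number. Of the 49 such genes in the annotation, 43 had a probe set of their own on the Affymetrix Rice Genome Array, out of 17905 genes with such a probe set. They comprised 20 HSF genes and 23 HSP genes. The other 6, HSFA6A, HSFB4C, HSFC2B, HSP16.9C, HSP18.9 and HSP19.0, were not analysed here. The HSP genes were 19 small HSPs, 3 members of the HSP90 family and 1 HSP100. No member carried a cognate (HSC) name or a number of the HSP60 or HSP70 classes, so those chaperones were not analysed here.

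HSFs are transcription factors that bind heat shock elements in promoters as trimers. Class A factors carry an activation motif, which class B factors lack, and class B factors of Arabidopsis (HsfB1 and HsfB2b) repress heat-inducible genes. Class C factors are a plant class without the typical activation motif. Small HSPs hold unfolding proteins in solution without using ATP, HSP90 helps the maturation of signalling proteins, and HSP101 of the HSP100 class pulls proteins out of aggregates. In leaves most of these genes are known for their response to heat, while some members act in development or disease resistance.

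RNA of 3 biological replicates of each genotype was hybridised, 1 array per sample, from plants kept at 28 °C during 16 h of light and at 23 °C during 8 h of dark. The labels give neither the promoter of the transgene nor the number of transgenic lines. OsCGA1 was not matched by name to a probe set, so the transgene was not checked. Signals are linear MAS5 intensities in arbitrary units, and changes are OX minus WT on the log2(signal + 3) scale, on which the fold of a dim gene comes out too small. Values after ± are standard errors of such a change, with 3 arrays per genotype. The words "rose" and "fell" are kept for genes with an adjusted p under 0.05 (limma, Benjamini-Hochberg over 28456 probe sets). A gene was tested where its mean over the 6 arrays reached 16.8, the median of all non-control values, and was read from its brightest probe set.

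The 6 leaf marker genes read 1166 to 13496 on every array. The 6 root markers read 0.6 to 458.2 and the 3 seed storage genes 0.4 to 88. Lsi2 of the root list and GLUA1 of the seed list were at or below 1.6 everywhere, so other genes of those lists gave the higher readings. The summed root marker signal was 274.7 to 304.6 on OX arrays and 669.4 to 707.1 on WT arrays, the summed seed signal 51.7 to 73.5 and 80.1 to 95.7, and the summed leaf signal 36484 to 42228 and 45447 to 53421. In 2 of 3 actin probe pairs the ratio of 3' to 5' signal, which reflects RNA quality, separated the genotypes, with all OX arrays above all WT arrays (3.25 to 7.29 against 2.38 to 3.11 in one pair, exact permutation p = 0.1, two-sided, the smallest that 3 arrays against 3 can give). In the third actin pair the groups overlapped (exact permutation p = 0.4). They also overlapped in the bright GAPDH pair (3.36 to 4.65 on OX arrays and 4.25 to 5.18 on WT arrays), in the ubiquitin and cyclophilin pairs, and in dimmer GAPDH and ef1a pairs. The part of these differences in the results below was not tested. In leaf tissue, fewer cells of a type and less RNA per cell cannot be told apart.

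Of the 43 genes, 34 passed the filter, 16 HSFs and 18 HSPs. In all, 5 rose, 1 fell and 28 did not pass, so 17.6% of the tested members passed, beside 19.1% of the 14616 genes tested with 1 probe set each. Those that rose were 11.1% and those that fell 8% of all genes. Among HSFs 2 of 16 rose and 0 fell, HSFA2C being 1 of the 2 and read from a probe set that may represent another gene, and among HSPs 3 of 18 rose and 1 fell. The median change was 0.04 over HSFs and 0.09 over HSPs, beside -0.02 over all genes tested. The share of members that passed was thus near that of all genes, and the called genes were scattered over the classes.

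**Figure D1:**
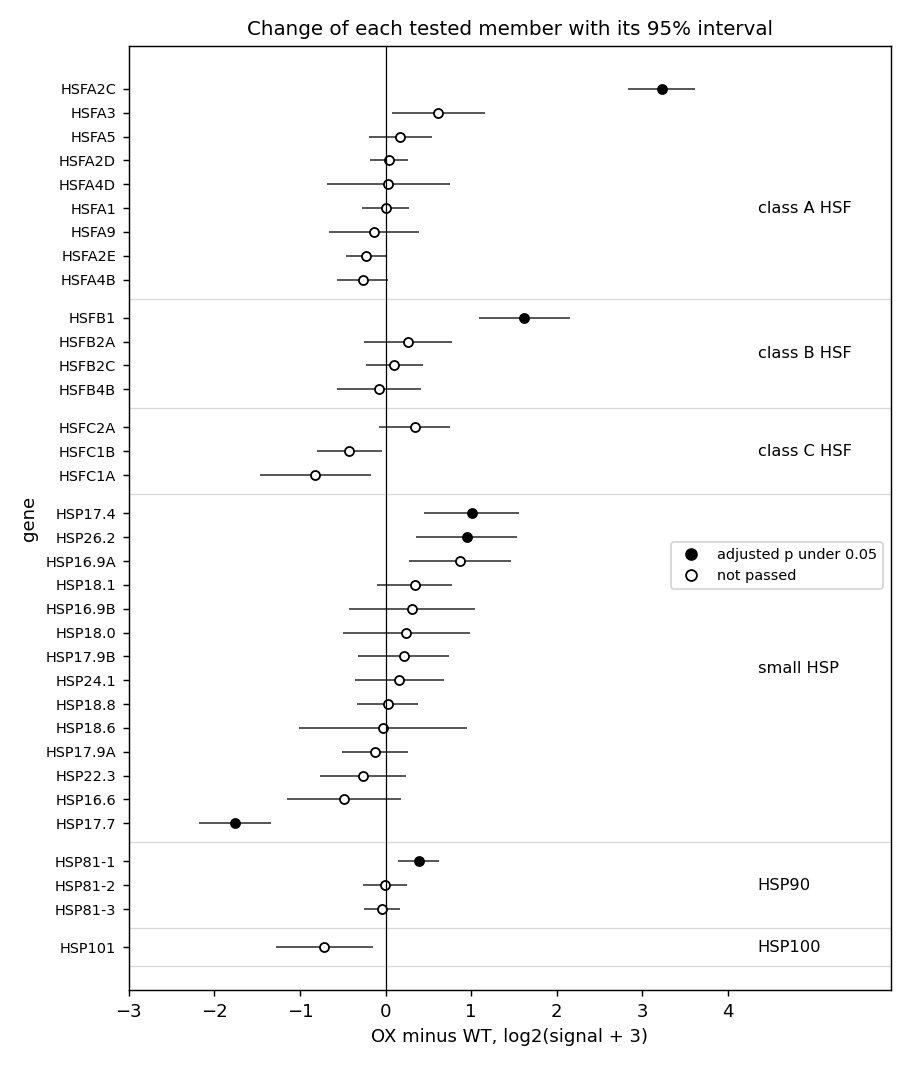
Change of the 34 tested members (OX minus WT on the log2(signal + 3) scale, n = 3 arrays per genotype), 1 row per gene, grouped by class. Bars are 95% intervals from limma and filled points passed an adjusted p of 0.05; HSFA2C and HSFB1 lie farthest to the right and HSP17.7 farthest to the left.

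HSFB1 (LOC4347259), a class B factor, rose 3.08-fold. Its signal was 215.2, 268.7 and 188.2 on the OX arrays, against 59.8, 58.1 and 98.1 on the WT arrays. Every OX array was thus far above the highest WT array. The change was 1.62 ± 0.23 (limma, adjusted p = 0.00391), and it passed in all 16 alternative settings, between 1.46 and 1.86. Among these, the looser threshold of 0.10 could not end the call, and the mean over probe sets only repeated its single probe set.

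The other HSF that rose was the gene carrying the name HSFA2C (LOC4348646), and its rise depends on which probe set is read. The brighter probe set had signals of 543.7, 687.5 and 618.2 on OX arrays, against 64.1, 75.4 and 51 on WT arrays, a 9.38-fold difference (3.23 ± 0.16, limma, adjusted p = 4.28e-05). The dimmer probe set of the same gene read 59.2, 68.8 and 69.3 on OX arrays, against 64.5, 48.8 and 47.6 on WT arrays. There the genotypes overlapped and the change of 0.29 ± 0.18 did not pass (limma, adjusted p = 0.296).

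The annotation holds information on which of these probe sets represents the factor. The RefSeq table lists LOC4348646 as a transcribed pseudogene and gives it, besides HSF names, the names ARD1 and OsIDI1 of an acireductone dioxygenase, an enzyme of methionine salvage. Among members, 13 carry an rHsf number among their synonyms, and 11 probe sets of 11 of these genes were designed from cDNA accessions that run in step with that number. The dimmer probe set of HSFA2C, which did not pass, is one of those 11, and the brighter one is not. Lying outside the series is not particular to it. The only probe set of HSFB1 and the brighter ones of HSFB2A and HSFB2B lie outside it too. The brighter signal of HSFA2C may be that of the dioxygenase whose names the gene carries, which was not tested. The 9.38-fold difference thus cannot be assigned to the factor. With the rHsf probe sets in place of the brighter ones of HSFA2C and HSFA2D, a setting chosen after seeing the data, 1 HSF rose instead of 2.

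HSFA2D (LOC4331707) also bears acireductone dioxygenase names (ARD and ARD2), and neither of its probe sets passed. The brighter read 1488.8, 1383.3 and 1586.4 on OX arrays and 1416.4, 1421.2 and 1485.3 on WT arrays. The probe set of the rHsf series read 279.7, 679.3 and 355.8 on OX arrays and 433.4, 365.9 and 432.6 on WT arrays. The changes were 0.04 ± 0.09 and -0.006 ± 0.29, so the rHsf probe set, with OX replicate 2 far above the other arrays, left a much wider margin.

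**Figure D2:**
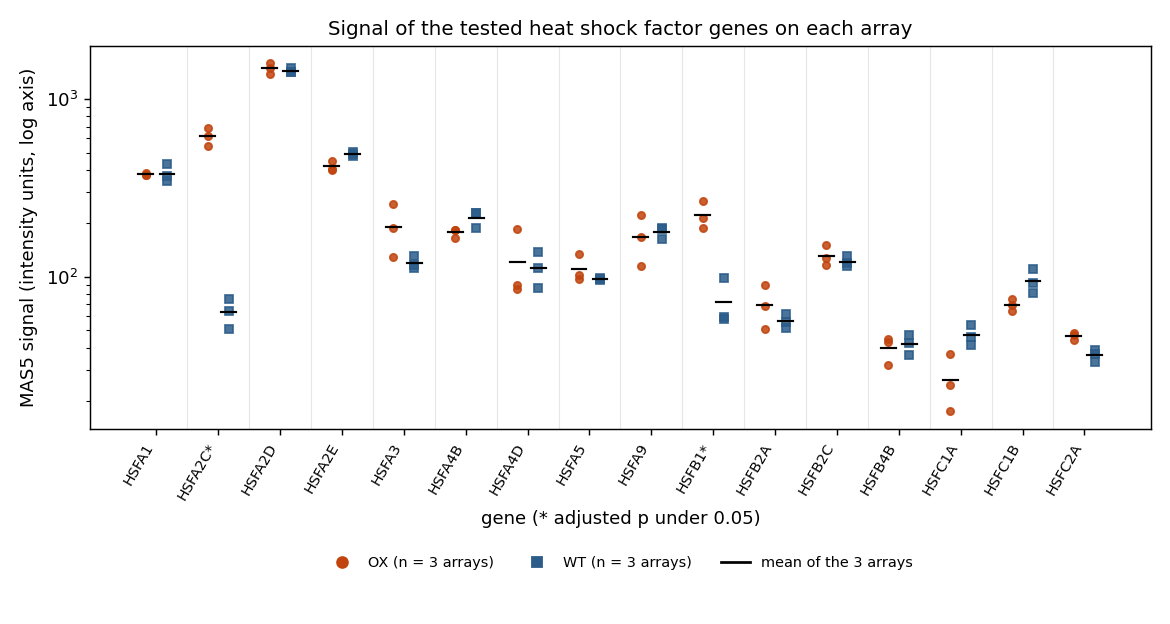
MAS5 signal (log axis) of the 16 tested HSF genes on each array, read from the brightest probe set, with OX arrays as circles, WT arrays as squares and bars for the means. The 2 genes marked with an asterisk, HSFA2C and HSFB1, passed the test; HSFA2C is read here from the probe set outside the rHsf series.

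Among the remaining class A factors none passed. HSFA1 (LOC4334826), whose relatives in tomato and Arabidopsis start the heat response, read 375.7, 375.8 and 385.3 on OX arrays and 344.7, 428.9 and 367.2 on WT arrays. Its 95% interval of the change ran from -0.26 to 0.26. HSFA3 (LOC4329526), which in Arabidopsis acts downstream of DREB2A, read 130.1, 257.8 and 187.5 on OX arrays, against 116.5, 130.9 and 112.1 on WT arrays. Its OX arrays were widely spread, and 1 of them lay below the highest WT array. The change was 0.61 ± 0.23 (limma, adjusted p = 0.107), and without OX replicate 1, the lowest, it was 0.86 with an adjusted p of 0.0221, while without OX replicate 2, the highest, it was 0.38 with an adjusted p of 0.182.

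HSFA2E and HSFA4B had slightly lower signals on every OX array than on any WT array. HSFA2E read 401.4, 402.3 and 450.3 on OX arrays and 501.4, 492.7 and 475.4 on WT arrays, a change of -0.23 ± 0.10. HSFA4B read 184.4, 183.5 and 165.9 on OX arrays and 188.9, 229.6 and 228.1 on WT arrays, a change of -0.27 ± 0.13. Neither passed (limma, adjusted p = 0.147 and 0.177). Groups did not overlap in 42.8% of all tested genes, so separation by itself was common.

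HSFA4D (LOC4339409), the SPL7 gene whose loss gives spotted leaves in rice, read 85.3, 187 and 90.3 on OX arrays and 87.2, 112.6 and 137.8 on WT arrays. Its interval from -0.67 to 0.74 leaves room for sizeable changes in either direction. HSFA5 (97.2 to 133.9 on OX arrays, 96.4 to 98.9 on WT arrays) and HSFA9 (114.5 to 223.9 and 163.9 to 187.2), a factor of seed development in Arabidopsis and sunflower, overlapped between genotypes as well. Their changes were 0.17 ± 0.15 and -0.13 ± 0.22.

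Of the other class B genes, HSFB2A, HSFB2C and HSFB4B did not pass in any of their tested probe sets. HSFB2A read 51.1, 68.4 and 90 on OX arrays and 61.6, 51.7 and 55.9 on WT arrays (0.26 ± 0.22), and its second probe set was at 0.33 ± 0.28. HSFB2C read 116.7 to 150.6 on OX arrays and 115 to 131.6 on WT arrays (0.10 ± 0.14), with its other probe sets at -0.43 and 0.11. HSFB4B read 32.1 to 44.9 on OX arrays and 36.5 to 47.1 on WT arrays (-0.08 ± 0.21), with its other probe set at -0.45. HSFB1 was therefore the one class B gene of 4 tested that passed, or 25%, beside 19.1% of all genes. The difference between HSFB1 and its relatives was not itself tested.

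HSFB2B (LOC4346229) missed the filter by a small margin, with a mean of 16.7, and has no test in the main setting. It read 24.4, 28.8 and 36.7 on OX arrays, against 4.1, 4.1 and 2.1 on WT arrays. All OX arrays were above all WT arrays, where the signal was near the pseudocount of 3. With no filter its change was 2.36 ± 0.37 (limma, adjusted p = 0.011), and a second probe set, of the rHsf series, read 0.3 to 4.3 on OX arrays and 1.6 to 8.1 on WT arrays. The other 3 HSFs under the filter (HSFA2A, HSFA2B and HSFA6B) did not pass without it.

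All 3 tested class C genes separated the genotypes, as did 42.8% of all tested genes, but in both directions and without passing. HSFC1A read 24.6, 17.6 and 36.7 on OX arrays, against 53.5, 46.1 and 41.6 on WT arrays (-0.82 ± 0.28, limma, adjusted p = 0.0804). HSFC1B read 69.3, 64.5 and 74.9 on OX arrays, against 81.2, 92.8 and 110.1 on WT arrays (-0.42 ± 0.16, adjusted p = 0.112, limma). HSFC2A went the other way, with 48.4, 44.4 and 47.2 on OX arrays and 33.4, 36.7 and 38.6 on WT arrays (0.34 ± 0.17, adjusted p = 0.213, limma). No HSF fell by limma. At an unadjusted p under 0.05, 3 HSFs were higher and 3 (HSFA2E, HSFC1A and HSFC1B) lower, beside 18.8% and 17.7% of all 14616 genes.

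Among small HSPs, 2 of 14 tested genes rose, HSP17.4 and HSP26.2, and 1 fell, HSP17.7. Thus 21.4% passed, near the 19.1% of all genes. HSP17.7 (LOC4332363) had signals of 59.5, 43.8 and 40.1 on OX arrays, against 182.7, 162.9 and 155.5 on WT arrays. Even the lowest WT array was far above the highest OX array. Its change was -1.76 ± 0.18 (limma, adjusted p = 0.00121), so that WT leaves had 3.38-fold more signal on this scale. It passed in every alternative tried except the mean over its probe sets, where a second, very dim probe set (3.7, 9 and 7.4 on OX arrays and 0.8, 3.7 and 0.6 on WT arrays) brought it to -0.35.

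HSP17.4 (LOC4332360) went in the opposite direction. It read 164.3, 93.6 and 93 on OX arrays, against 48.4, 59.3 and 56.8 on WT arrays. The groups did not overlap, and OX replicate 1 stood above the other OX arrays. Its change was 1.01 ± 0.24, or 2.01-fold (limma, adjusted p = 0.026), and the call ended without WT replicate 1, 2 or 3 (adjusted p = 0.0836, 0.0676 and 0.0688), where the change stayed at 0.92, 1.06 and 1.03.

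These genes are near neighbours on chromosome 3, in a group of cytosolic class I small HSPs. In the order of the annotation (ASM3414082v1), HSP17.9A is followed after 4 other genes by HSP17.4, HSP18.1 and HSP17.7, which are adjacent. HSP17.9A read 249.1, 193.5 and 272.3 on OX arrays and 257.6, 294.9 and 224.3 on WT arrays (-0.12 ± 0.16), with overlapping groups. HSP18.1 read 89.2, 74.3 and 70.7 on OX arrays and 49.7, 72.8 and 61.6 on WT arrays (0.34 ± 0.19), also overlapping, and its second probe set was at 0.41 ± 0.25. Within this group of 4, changes thus ran from a rise in HSP17.4 to a fall in HSP17.7, only 2 genes further along.

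A second group lies on chromosome 1, where HSP16.6, HSP17.9B, HSP16.9C, HSP16.9A and HSP16.9B are adjacent. None of the 4 that could be tested passed. HSP16.9A (LOC4325697) read 46.1, 45 and 44.2 on OX arrays, against 32, 23 and 16.9 on WT arrays, with no overlap. Its change of 0.87 ± 0.25 just missed the threshold (limma, adjusted p = 0.0518). It passed in 6 of 15 alternatives, counting the looser threshold of 0.10, which reads the same fit and had to give a pass. The annotation also lists HSP16.9B among the names of this gene, and HSP16.9B (LOC4325698) itself read 24.7, 22.4 and 31.5 on OX arrays and 27.7, 13.2 and 22.5 on WT arrays (0.31 ± 0.31). HSP16.6 was at -0.48 ± 0.28 and HSP17.9B at 0.21 ± 0.22, with overlapping groups. Genes this similar in sequence can share probes, and cross-hybridisation between them was not tested.

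**Figure D3:**
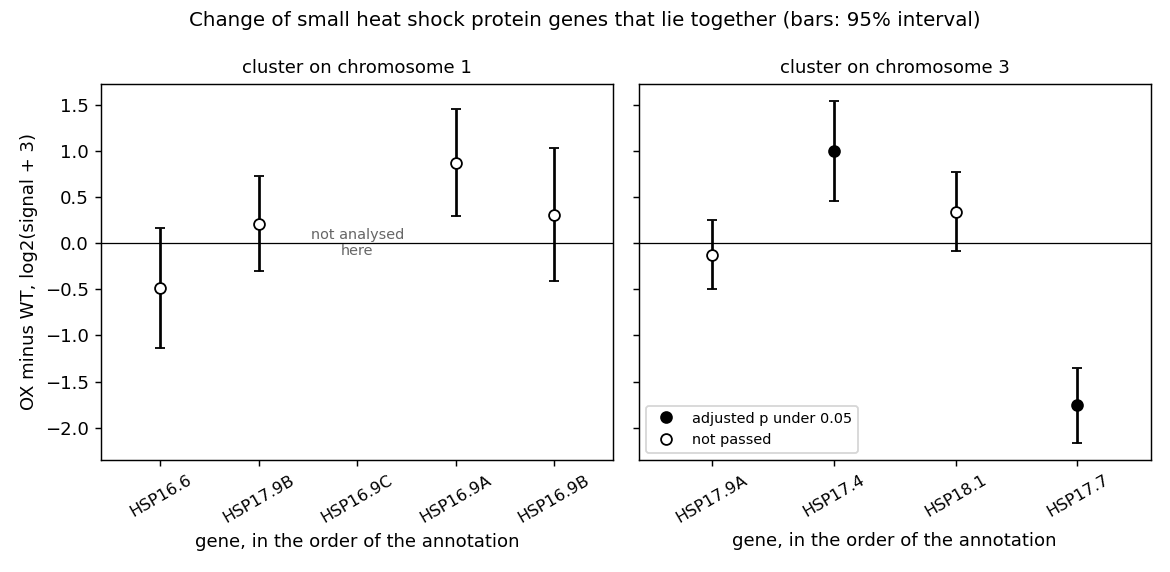
Change of the small HSP genes of the groups on chromosome 1 (left) and chromosome 3 (right), in annotation order, on the log2(signal + 3) scale (OX minus WT, n = 3 arrays per genotype). Bars are 95% intervals and filled points passed the test; HSP17.4 at 1.01 and HSP17.7 at -1.76 lie on opposite sides of 0.

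HSP26.2 (LOC4340508) was the other small HSP that rose. It read 54, 34.2 and 57.7 on OX arrays, against 26, 21.8 and 22 on WT arrays. All OX arrays were higher, by 0.95 ± 0.25 (limma, adjusted p = 0.0384). The call ended without OX replicate 1 or 3 or any WT replicate, with adjusted p between 0.0735 and 0.137 and changes of 0.81 to 1.02, and with no filter (0.0852). Its only probe set is of a kind (suffix s) that can match more than a single transcript.

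The other small HSPs did not pass. HSP18.8 (LOC4343386) read 3261.5, 2249 and 2574 on OX arrays and 2846.1, 2323.5 and 2707.7 on WT arrays (0.03 ± 0.15). HSP17.9B read 1900.4, 950.8 and 1444.9 on OX arrays and 1296.7, 1111 and 1160.6 on WT arrays. In both, OX replicate 1 was the highest and OX replicate 2 the lowest of all 6 arrays. HSP18.0 read 357.3, 158 and 190.9 on OX arrays and 146.8 to 258.6 on WT arrays. HSP18.6 read 138.9, 34.4 and 72.9 on OX arrays and 64.3 to 80.9 on WT arrays. Here too OX replicate 1 was the highest and OX replicate 2 the lowest OX array. Their changes were 0.24 ± 0.32 and -0.03 ± 0.42, and the other tested probe sets of HSP18.0 were at -0.16 and -0.15 and that of HSP18.6 at 0.56. HSP22.3 (46.5 to 56.8 on OX arrays, 52.1 to 80.9 on WT arrays) and HSP24.1 (68.6 to 94.1 and 55.4 to 95.4) overlapped too, with changes of -0.26 ± 0.21 and 0.16 ± 0.22. HSP18.1 and HSP18.8 (suffix x) and HSP18.6 (suffix s) were read from probe sets that can match more than a single transcript.

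OX replicate 1 was the highest OX array in 8 of the 14 tested small HSPs (57.1%) and OX replicate 2 in 1 (7.14%). Over all 14616 genes tested these shares were 36.5% and 35.5%. The median gap of OX replicate 1 to the mean of the other OX arrays was 0.28 over these genes, against -0.06 over the 16 HSFs and 0.01 over all 14616 genes tested. That array also had the highest ratio of 3' to 5' signal in every actin pair, in one of them 7.29, against 3.75 and 3.25 on the other OX arrays. It was the highest OX array in the bright GAPDH pair too (4.65 against 4.04 and 3.36), and in the dimmer GAPDH and ef1a pairs. In the cyclophilin pair it had the lowest OX ratio (1.58), and in the ubiquitin pair it lay between the other OX arrays. The part of these ratios in the pattern was not tested. Over the 14 small HSPs the median change was 0.19 with that array and -0.06 without it, where 1 rose (HSP17.4) and 1 fell (HSP17.7). The median over all genes was -0.02 in both settings. That array was picked for being high in these same genes, so a lower median without it follows from the choice. Among WT arrays, WT replicate 1 was the highest in 7 of the 14 (50%), beside 35.8% of all genes tested.

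**Figure D4:**
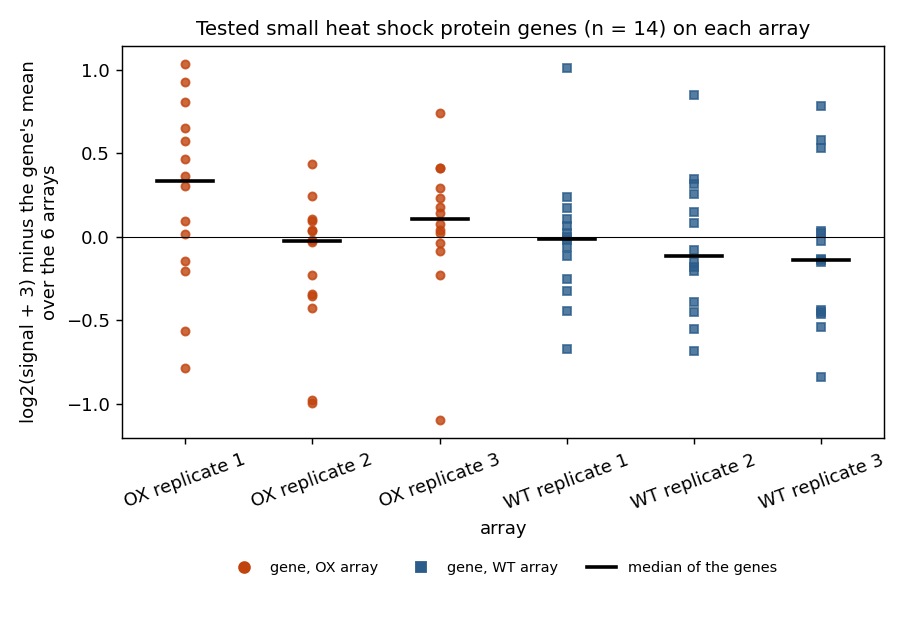
Deviation of each of the 14 tested small HSP genes from its own mean over the 6 arrays, on the log2(signal + 3) scale, with OX arrays as circles, WT arrays as squares and bars for the median gene. OX replicate 1 has the highest median, and the point lowest on OX replicate 3 and highest on WT replicate 1 is HSP17.7.

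Of the HSP90 genes, HSP81-1 (LOC4345951, also called HSP82) rose by a small amount. It read 1544.3, 1344.2 and 1298.9 on OX arrays, against 1070.7, 1026.9 and 1087.7 on WT arrays, a 1.31-fold difference without overlap. The change was 0.39 ± 0.10 (limma, adjusted p = 0.0343). Its second probe set read 319.7, 247.3 and 149.2 on OX arrays and 266.6, 310.4 and 372.8 on WT arrays, a change of -0.46 ± 0.26 that did not pass (limma, adjusted p = 0.265). The direction is therefore not the same in its 2 probe sets. The call also ended without OX replicate 1 or 3 or any WT replicate (adjusted p between 0.0673 and 0.111, changes of 0.32 to 0.44), with no filter (0.0652) and with no variance trend (0.0892).

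HSP81-2 and HSP81-3, which lie on chromosome 9 with 2 genes between them, did not pass. HSP81-2 (LOC4347402) read 2212.1, 2036.7 and 2205 on OX arrays and 2465.6, 2018.7 and 2037.2 on WT arrays, with a 95% interval of the change from -0.26 to 0.24. HSP81-3 (LOC4347405) read 3205.2, 3063.4 and 3342.4 on OX arrays and 3127, 3391.4 and 3351 on WT arrays, with an interval from -0.24 to 0.16. Its other tested probe sets were at -0.16, -0.05 and -0.23. The signal used for HSP81-3 comes from a probe set that can match more than a single transcript, so these close relatives may not be fully told apart.

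HSP101 (LOC4339343, also CLPB1), the disaggregase, was lower on every OX array. It read 17.2, 27 and 20.3 on OX arrays, against 40.4, 34.2 and 35.6 on WT arrays. The change of -0.71 ± 0.24 did not pass (limma, adjusted p = 0.0817), except with no variance trend (0.0498) and with array weights (0.0298). It also came under the looser threshold of 0.10, which reads the same fit. Its signals were low, close to the filter on the OX arrays.

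**Figure D5:**
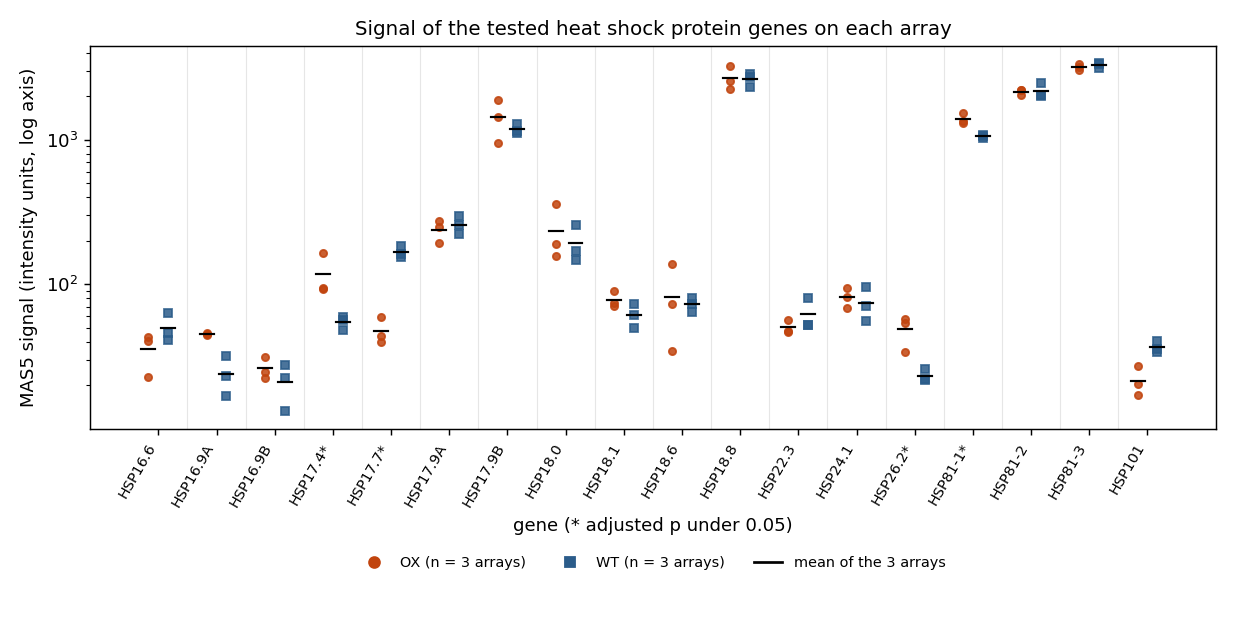
MAS5 signal (log axis) of the 18 tested HSP genes on each array, with OX arrays as circles, WT arrays as squares and bars for the means. Asterisks mark HSP17.4, HSP17.7, HSP26.2 and HSP81-1; only HSP17.7 among them is lower in OX, and the OX arrays of HSP18.0 and HSP18.6 are widely spread.

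The number of HSPs that rose was 3 with all arrays, 1 without OX replicate 1 or OX replicate 3 (HSP17.4 each time), 1 without WT replicate 1 (HSP16.9A, at 1.08 with an adjusted p of 0.0415 by limma), 0 without WT replicate 2 or 3, and 4 without OX replicate 2. The added gene there was HSP17.9B, at 0.48 with an adjusted p of 0.0477 (limma). The number that fell was 1 throughout. The number of all probe sets called also changed, between 2230 and 5533 over these settings against 4578 with all arrays, which were 16.1% of those tested. The 5 HSPs under the filter (HSP16.0, HSP17.8, HSP21.9, HSP23.2 and HSP26.7) read 0.8 to 19.6. Of these only HSP23.2 separated the genotypes, with 19.6, 9.8 and 14.5 on OX arrays and 4.3, 0.8 and 5.9 on WT arrays (1.45 ± 0.45 with no filter, limma, adjusted p = 0.114).

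Of 7 tested co-chaperone and other chaperone genes 1 rose and 1 fell, or 28.6%, beside 19.1% of all genes. DJB6 (LOC4337860, ERdj3B), a J-domain protein of the endoplasmic reticulum, read 361.6, 438.4 and 354.3 on OX arrays, against 202.1, 165.6 and 234.4 on WT arrays (0.94 ± 0.16, limma, adjusted p = 0.00736). DJA6 (LOC4336584), another J-domain protein, read 2866, 2277.2 and 2813.5 on OX arrays, against 3853.2, 3543.3 and 3476.2 on WT arrays (-0.46 ± 0.11, limma, adjusted p = 0.0321). The groups did not overlap in either. CLPB-C and CLPB-M, relatives of HSP101, were at -0.08 ± 0.12 and 0.36 ± 0.19.

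Of 16 tested genes of protein folding in the endoplasmic reticulum and the unfolded protein response, 3 rose and 0 fell, or 18.8% passed, beside 19.1% of all genes. At an unadjusted p under 0.05 (limma) 3 were higher and 1 lower, beside 18.8% and 17.7% of all genes. The lower gene was PDIL2-3, at -0.36 ± 0.14 without overlap of the groups (limma, adjusted p = 0.113). The disulfide isomerase gene PDIL1-1 (LOC4350002) read 1999.7, 1710.3 and 1420.5 on OX arrays, against 857.7, 834.9 and 985.7 on WT arrays (0.93 ± 0.14, limma, adjusted p = 0.00513). BZIP50 (LOC4341554), the factor whose transcript is spliced by IRE1 under folding stress, read 335.9, 289.2 and 303.3 on OX arrays, against 171.9, 183.3 and 199.8 on WT arrays (0.73 ± 0.12, limma, adjusted p = 0.00619). The groups were well apart in both. IRE1 itself was at -0.39 ± 0.17, BZIP39 at -0.05 ± 0.10 and BZIP60 at -0.08 ± 0.15, each with overlapping groups and without passing. A further isomerase gene, PDIL2-1 (LOC4337858), rose by 0.43 ± 0.09, while BIP1 (LOC4328075), the HSP70 of that compartment, was at 0.19 ± 0.14 with overlapping groups. The list's median was 0.08, beside -0.02 over all genes tested.

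None of 13 tested genes of a list of heat and stress protection passed by limma, beside 19.1% of all genes. At an unadjusted p under 0.05 (limma) 1 was higher and 3 lower, beside 18.8% and 17.7% of all genes. The cytosolic ascorbate peroxidase gene APX1 read 1523.6, 1503 and 1204.8 on OX arrays and 782.3, 755.2 and 1230.8 on WT arrays (0.64 ± 0.20, limma, adjusted p = 0.061), WT replicate 3 overlapping the OX arrays. The 3 lower were the plastid protease gene FTSH2 at -0.29 ± 0.12, FTSH6 at -0.68 ± 0.29 and FTSH7 at -0.30 ± 0.13. DREB2A and DREB2B, factors of drought and heat responses, were at 0.27 ± 0.24 and -0.008 ± 0.13.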

How the data were processed

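The authors deposited signal intensities on a linear scale, 1 array per sample; the submitters' processing notes name MAS5, whose version is not given in the sources used here. The 2% trimmed mean was 100.02 on every array, so arrays were taken as already scaled. The median non-control signal still separated the genotypes, at 14.7 to 16.2 on OX arrays and 16.8 to 18.7 on WT arrays. Over the tested probe sets the median change was -0.09, and -0.05 with quantile normalization. The part of this shift in the changes of dim members was not tested. Detection calls were not used here. Of 57381 probe sets, 187 controls were left out, and 22436 had a single gene in the platform annotation. Names and gene order came from the RefSeq table (ASM3414082v1). Values were analysed as log2(signal + 3) with limma 3.58.1 in R 4.3.3 (lmFit, eBayes with trend, genotype alone, two-sided), tested on simulated data. Members and lists were chosen with earlier results of these data known. Text named members that passed, all tested HSFs, the brightest HSPs of each class, and list genes with small p. BIP1, IRE1, BZIP39, BZIP60, CLPB-C, DREB2A and DREB2B were named as well, though other genes of their lists had smaller p. From the endoplasmic reticulum list, 10 of 31 matches were dropped because their names (bip and BIPP2C series) belong to other families. Heat shock elements and protein sequences were not analysed here. Where replicates came from is given only as biological replicates, and the number of arrays limits the precision. Alternatives covered pseudocount, filter, normalization, variance trend, array weights, replicate block, probe set choice, threshold and each array left out.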

Additional observations from a re-analysis of the deposited data

How the results depend on the processing

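HSFB1 and the brighter probe set of HSFA2C kept their direction and call in all alternatives except, for HSFA2C, the change of probe set. The number of probe sets called was 7250 at a threshold of 0.10 for the adjusted p, 7944 with array weights and 2230 to 5533 with each array left out. HSFs that rose numbered 2 to 3 with each array left out and 1 with the rHsf probe sets; 1 HSF (HSFC1A) fell at an adjusted p under 0.10, where the main count was 0. HSPs that rose numbered 1 with no filter, 0 with the replicate block and 0 to 4 with each array left out; those that fell numbered 2 at the 0.10 threshold, with array weights and with no variance trend, and 0 with the mean over probe sets. With that mean HSP81-1 was at -0.033 (adjusted p = 0.912). The third HSF without a filter was HSFB2B; the cause of the other shifts was not tested. Same-numbered OX and WT arrays did not deviate together (r = 0.0969, -0.0128 and -0.0561 over tested probe sets), so the numbers were not taken as pairs; the block gave 3342 calls. The higher share of called probe sets was 53.8%, against 46.7% to 64.1% over the alternatives. Signals under the filter lie near background and limit what can be said of 9 members.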
